A study of Mus musculus with 6 samples.

Results

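The 9 genes described here encode the hormone insulin-like growth factor 1 (*Igf1*), the acid-labile subunit that holds it in the circulation (*Igfals*) and the 7 insulin-like growth factor binding proteins (*Igfbp1* to *Igfbp7*). They were taken by symbol from a table of 31950 genes measured by RNA sequencing in 6 mouse livers, and each of the 9 symbols matched a single row. The livers came from C57BL/6 mice that the labels give as 8 weeks old. They form a WT group (n = 3) and a β-cateninΔ(ex3)/+ group (n = 3), in which 1 allele of *Ctnnb1* lacks exon 3, the part of β-catenin that marks the protein for degradation. The methods describe an adenovirus carrying Cre, which reaches only some liver cells, a tamoxifen-inducible Cre driven by the albumin promoter, which acts in hepatocytes, and a constitutive albumin Cre. The name of the mutant group is the one the study gives to livers of the tamoxifen route, but the text on sequencing states no route for these livers and does not say what the WT mice received. Levels are FPKM, fragments counted per length of transcript and per depth of library, a scale that corrects for gene length, so that levels can be set side by side between genes.

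The liver is the main source of the IGF1 that circulates in blood, and growth hormone drives its production through the growth hormone receptor and STAT5. In plasma IGF1 is carried by binding proteins, mostly in a complex with IGFBP3 and the acid-labile subunit, which keeps the hormone in the vessels and slows its clearance. IGFBP1 and IGFBP2 form smaller complexes with it, and hepatic *Igfbp1* is known as a gene that insulin represses through FoxO factors. The binding proteins can hold IGF1 away from its receptor or deliver it, and proteases such as the pappalysins release it by cutting IGFBP4 and IGFBP5.

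The members that differed most between the groups were *Igfbp1*, *Igfbp2* and *Igfbp3*, and their promoters are shown so that the values can be read beside the sequence they belong to, together with that of the hormone gene. Each window runs from 250 bases before to 50 bases after a RefSeq start site on GRCm38.p6, is written 5′ to 3′ on the strand of the gene, and has in capitals the motifs that were searched on both strands. These were CAAAACAA, the core of the insulin response element that FoxO factors bind, AACAAAG with its variants ATCAAAG and then TACAAAG and also TTCAAAG for TCF/LEF factors, the DNA-binding partners of β-catenin, and TATAAA. The windows lie at chr11:7197537-7197836 (plus strand) for *Igfbp1*, chr1:72824230-72824529 (plus strand) for *Igfbp2*, chr11:7213874-7214173 (minus strand) for *Igfbp3* and chr10:87860861-87861160 (plus strand) for *Igf1*.
Igfbp1: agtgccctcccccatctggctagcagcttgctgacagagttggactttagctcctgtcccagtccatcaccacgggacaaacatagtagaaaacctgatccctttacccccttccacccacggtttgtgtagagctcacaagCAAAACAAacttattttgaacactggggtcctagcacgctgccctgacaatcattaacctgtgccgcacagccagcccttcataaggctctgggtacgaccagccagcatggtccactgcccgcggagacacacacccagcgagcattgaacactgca
Igfbp2: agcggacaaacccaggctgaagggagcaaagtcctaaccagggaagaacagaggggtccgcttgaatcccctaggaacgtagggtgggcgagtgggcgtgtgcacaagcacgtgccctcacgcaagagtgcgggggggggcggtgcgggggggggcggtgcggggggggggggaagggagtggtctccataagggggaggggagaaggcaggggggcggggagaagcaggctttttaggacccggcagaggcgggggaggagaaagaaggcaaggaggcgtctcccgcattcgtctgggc
Igfbp3: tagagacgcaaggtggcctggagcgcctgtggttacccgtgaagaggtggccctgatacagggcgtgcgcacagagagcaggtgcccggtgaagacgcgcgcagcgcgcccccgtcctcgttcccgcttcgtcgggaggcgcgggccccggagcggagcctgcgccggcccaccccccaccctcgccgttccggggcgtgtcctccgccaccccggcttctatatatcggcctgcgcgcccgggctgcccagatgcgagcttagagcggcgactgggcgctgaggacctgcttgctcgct
Igf1: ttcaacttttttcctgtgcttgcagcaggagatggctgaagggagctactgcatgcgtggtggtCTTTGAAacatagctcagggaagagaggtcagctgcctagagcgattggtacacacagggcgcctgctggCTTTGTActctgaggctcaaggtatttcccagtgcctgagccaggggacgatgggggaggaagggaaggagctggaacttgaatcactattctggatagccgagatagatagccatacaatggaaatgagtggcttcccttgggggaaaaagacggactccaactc

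All 9 members had a promoter in the RefSeq table, with 12 windows between them. CAAAACAA occurred in 1 of the 12, that of *Igfbp1*, where it began at position -108 from the start site. It was present in 2.51% of all 32851 mouse promoters of the same length. A TCF/LEF word, found in 16.9% of all promoters, occurred in the *Igf1* window at -186 and -116 and in 1 of the 3 *Igfals* windows at -228, and in none of the windows of the binding protein genes. TATAAA, found in 13.6% of all promoters, occurred at -28 in *Igfbp4* and at -148 in *Igfbp6*. The printed windows of *Igfbp2* and *Igfbp3* held none of these letters and were rich in G and C, at 67.0% and 71.7% against a median of 52.7% over all promoters. A match is a description of the letters in these windows, and no binding was measured.

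The groups differed in more than the allele that names them, and these differences stand beside every comparison that follows. Transcripts of the β-catenin targets *Glul*, *Oat* and *Axin2* were higher in the β-cateninΔ(ex3)/+ livers, by 2.59, 5.19 and 1.86 on the log2 scale. *Ctnnb1* itself lay at 25.9 to 28.0 FPKM in WT and 25.0 to 25.4 FPKM in β-cateninΔ(ex3)/+ livers. It did not pass the test (log2 fold change -0.10, adjusted p = 0.0935), and a value per gene cannot show the loss of an exon. The hepatocyte product *Alb* was abundant in all 6 livers. Markers of the young liver stood against the age on the labels of the WT mice: *H19* lay at 2320 to 2374 FPKM and *Afp* at 601 to 612 in the WT livers, against at most 0.0480 and at most 2.81 in the β-cateninΔ(ex3)/+ livers, and all 8 genes of the young-liver list were lower in the latter. *Xist* was high only in the 3 WT livers and *Eif2s3y* and *Ddx3y* only in the 3 β-cateninΔ(ex3)/+ livers, so genotype cannot be told apart here from the sex of the mice or from whatever the young-liver markers follow. In the lists of cell type markers, a gene counts as higher or lower if it passed both thresholds given in the next paragraph. By that rule 7 of 10 stellate cell genes were lower in the β-cateninΔ(ex3)/+ livers (summed level 107 to 109 FPKM in WT, 31.7 to 34.8 in β-cateninΔ(ex3)/+). Of 6 Kupffer cell genes 3 were higher and 1, *Marco*, was lower (mean 50.1 against 18.9 FPKM). The Kupffer sum was 193 to 198 against 447 to 458 FPKM. By the same rule 2 of 5 hepatocyte genes were lower (71666 to 74974 against 36003 to 36413 FPKM), as was 1 of 8 endothelial genes (84.3 to 85.5 against 59.2 to 61.9 FPKM). By group means alone, all 10 stellate and all 8 endothelial genes were lower, and of the Kupffer genes 5 were higher and 1 lower. Of the hepatocyte genes 4 had lower means and 1, *Cps1*, a higher one (89.0 against 177 FPKM). No gene of these lists was at 0 in any liver. The part these shifts play in the values of the members was not tested, and in bulk liver fewer cells of a type cannot be told apart from less RNA per cell.

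All 9 members passed the filter on low values, a mean of at least 0.5 FPKM over the 6 livers, which 13243 genes passed. Against the WT livers 3 members fell in the β-cateninΔ(ex3)/+ livers and none rose, where a call needed an adjusted p under 0.05 in limma and a change of at least 2-fold on the log2(FPKM + 1) scale. Among all genes tested, 4.52% were called lower and 8.17% were called higher. In addition, *Igfbp7* passed the adjusted p and not the fold. Of the 13243 genes tested, 7551 passed the adjusted p alone, 4952 as higher and 2599 as lower. The 6 values did not overlap between the groups for 6 of the 9 members, against 66.0% of all genes tested, so the members' share is at the background. The median log2 fold change was -0.78 over the 9 members and 0.14 over all genes tested.

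**Figure D1:**
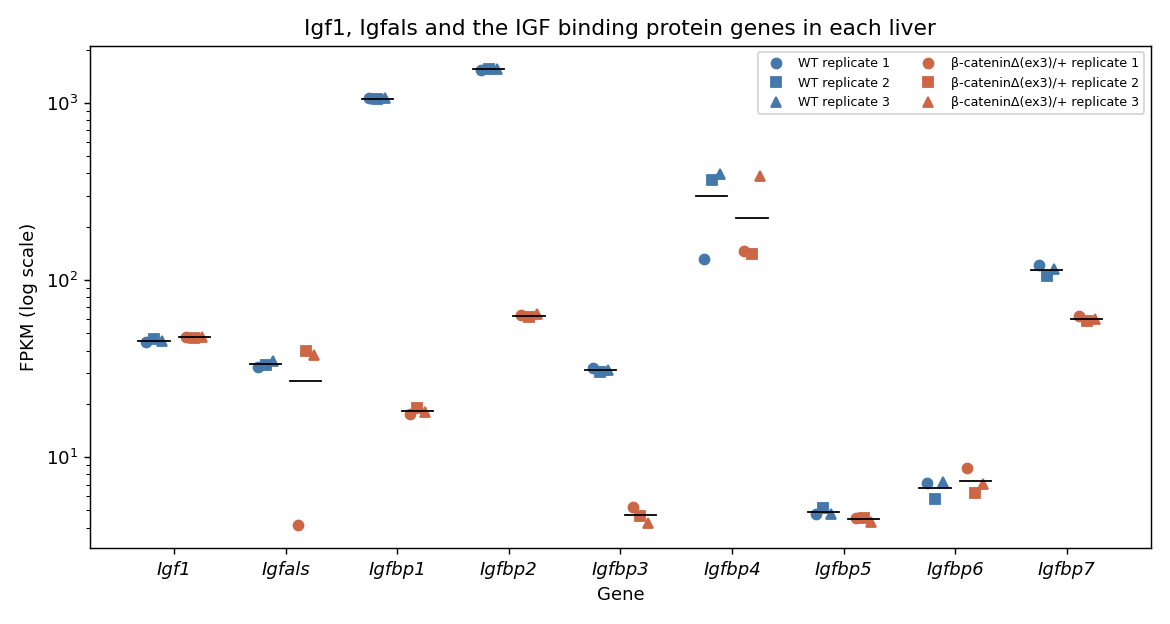
FPKM on a log scale (y axis) of the 9 members (x axis) in each of the 3 WT and 3 β-cateninΔ(ex3)/+ livers, with 1 point per liver. *Igfbp1* drops from 1047 to 1062 FPKM in WT to 17.5 to 18.9 in the mutant livers, *Igfals* has 1 mutant liver at 4.11 FPKM far below the other 5, and *Igfbp4* is split within both groups.

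*Igf1*, the hormone gene, was at nearly the same FPKM in all livers. It measured 44.8, 46.4 and 45.0 FPKM in WT replicates 1, 2 and 3 and 47.6, 47.0 and 47.8 FPKM in β-cateninΔ(ex3)/+ replicates 1, 2 and 3. Every β-cateninΔ(ex3)/+ liver was above every WT liver, by a margin that is small beside the level. Ranked among all genes of its own liver, *Igf1* stood at 818 to 858 in WT and at 950 to 957 in β-cateninΔ(ex3)/+ livers. The means were 45.4 ± 0.867 and 47.5 ± 0.384 FPKM (SD, n = 3 each), a log2 fold change of 0.06 (SE 0.033, 95% interval -0.016 to 0.14, adjusted p = 0.144). As a fold the interval ran from 0.989 to 1.11. It is an interval for the difference of the group means, set by the spread between livers, and does not include the choice of scaling. An exact permutation test of the 6 values gave a two-sided p of 0.1, the smallest that 3 against 3 livers allow. The small sign depended on scaling: it was -0.11 (adjusted p = 0.0405) after median-ratio scaling and -0.20 (adjusted p = 0.00531) after quantile normalization, settings that move the median of all genes from 0.14 to 0.02 and -0.02. *Igf1* (ENSMUSG00000020053) has 8 annotated transcripts on GRCm38 chromosome 10, from 87858265 to 87937042 on the plus strand, and overlaps its antisense gene *Igf1os* over 5117 bases. *Igf1os* was measured at 0.609 to 0.912 FPKM in WT and 0.226 to 0.403 FPKM in β-cateninΔ(ex3)/+ livers, far below *Igf1* itself. The libraries were made with a method that keeps the strand, and whether the counting used it is not given in the sources used here.

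*Igfbp3*, the binding protein of the large circulating complex, fell in the β-cateninΔ(ex3)/+ livers. Its levels were 31.9, 30.4 and 31.1 FPKM in the WT livers and 5.25, 4.66 and 4.26 FPKM in the β-cateninΔ(ex3)/+ livers. The groups lay well apart, with little spread inside either. The mean was 6.58-fold higher in WT (31.1 ± 0.778 against 4.73 ± 0.499 FPKM, SD, n = 3 each), and the log2 fold change was -2.49 (SE 0.072, adjusted p = 1.63e-06). In liver *Igfbp3* is known as a transcript of cells other than hepatocytes. Of the marker sums given above for such cells, the stellate and endothelial ones were lower in these livers and the Kupffer one was higher. Their part in the *Igfbp3* value was not tested. The gene (ENSMUSG00000020427) occupies chr11:7206086-7213923 on the minus strand.

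*Igfals*, which encodes the acid-labile subunit and is made by hepatocytes, differed by less than the spread between replicates. It measured 32.4, 33.0 and 34.8 FPKM in the WT livers and 4.11, 39.5 and 37.6 FPKM in the β-cateninΔ(ex3)/+ livers. The first β-cateninΔ(ex3)/+ liver stood alone, while the other two lay above all 3 WT livers. The group means were 33.4 ± 1.23 and 27.1 ± 19.9 FPKM (SD, n = 3 each), with a log2 fold change of -0.78 (SE 0.81, 95% interval -2.76 to 1.2, adjusted p = 0.444) and an exact permutation p of 1.0. The mean of the 5 other livers was 8.62-fold that of the low one. Without that liver the log2 fold change was 0.20 (SE 0.052, adjusted p = 0.0276), so the direction of this gene rested on 1 library. The same liver was not apart in *Igf1* or in *Igfbp1*, *Igfbp2* or *Igfbp3*. *Igfals* (ENSMUSG00000046070, chr17:24865997-24882010, plus strand) has 6 annotated transcripts, of which 1 is coding, and a gene-level value does not show which of them changed.

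*Igfbp1*, which encodes the insulin-repressed binding protein of hepatocytes, fell the most of the 9 members. The WT livers held 1062, 1047 and 1061 FPKM, and the β-cateninΔ(ex3)/+ livers 17.5, 18.9 and 17.9 FPKM. No liver of either group came near the other group. The mean was 58.4-fold higher in WT (1057 ± 8.42 against 18.1 ± 0.714 FPKM, SD, n = 3 each), a log2 fold change of -5.79 (SE 0.036, 95% interval -5.88 to -5.70, adjusted p = 5.62e-09). Ranked among all genes of its own liver, *Igfbp1* stood at 58 to 60 in WT and at 2036 to 2193 in β-cateninΔ(ex3)/+ livers. The gene (ENSMUSG00000020429, chr11:7197782-7202546, plus strand) is the member whose promoter holds the CAAAACAA shown above.

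*Igfbp2*, which encodes a binding protein that the fetal liver makes in quantity and the adult liver continues to make, followed with the second largest change. It measured 1539, 1561 and 1551 FPKM in the WT livers and 63.4, 61.6 and 64.0 FPKM in the β-cateninΔ(ex3)/+ livers. The mean was 24.6-fold higher in WT (1550 ± 10.8 against 63.0 ± 1.27 FPKM, SD, n = 3 each), and the log2 fold change was -4.60 (SE 0.027, adjusted p = 4.41e-09). Despite the fall it stayed among the more abundant transcripts, ranked 727 to 749 in the β-cateninΔ(ex3)/+ livers against 41 and 42 in WT. The gene (ENSMUSG00000039323) lies at chr1:72824503-72852474 on the plus strand. Because *H19*, *Afp* and the rest of the young-liver list fell in the same livers, the part that this shift plays in *Igfbp1* and *Igfbp2* was not tested.

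**Figure D2:**
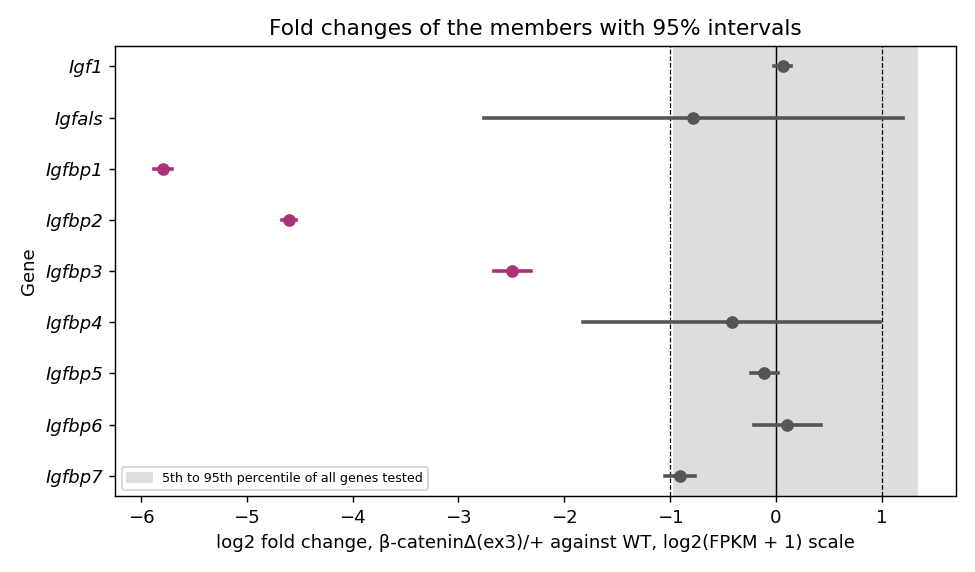
Log2 fold change of β-cateninΔ(ex3)/+ against WT on the log2(FPKM + 1) scale (x axis) for each member (y axis), with points at the limma estimate and bars for the 95% interval. *Igfbp1*, *Igfbp2* and *Igfbp3* sit at -5.79, -4.60 and -2.49 with short bars, whereas the bars of *Igfals* and *Igfbp4* span 0 widely.

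*Igfbp4*, a binding protein that generally restrains IGF action and gives up its IGF when a pappalysin cuts it, was split inside both groups. It measured 132, 367 and 395 FPKM in WT replicates 1, 2 and 3 and 146, 141 and 388 FPKM in β-cateninΔ(ex3)/+ replicates 1, 2 and 3. The 6 livers fell into 3 at 132 to 146 FPKM and 3 at 367 to 395 FPKM, with livers of each genotype on both sides and a ratio of 2.74 between the means of the high and the low livers. Within a group the coefficient of variation was 48.5% in WT and 62.7% in β-cateninΔ(ex3)/+, against medians of 4.50% and 3.31% over the 1854 genes with a mean of at least 20 FPKM. The means of 298 ± 145 and 225 ± 141 FPKM (SD, n = 3 each) differed by less than that spread (log2 fold change -0.42, SE 0.57, 95% interval -1.82 to 0.98, adjusted p = 0.564, exact permutation p = 0.9). The interval is wide enough to hold a fall of more than 2-fold as well as a rise close to it, so no statement on a genotype difference in *Igfbp4* can be made from these livers. Leaving out 1 liver at a time moved the estimate between -0.93 and -0.14. The gene (ENSMUSG00000017493, chr11:99041244-99054392, plus strand) has 6 annotated transcripts, 3 of them coding.

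A split of this kind was not particular to *Igfbp4*. By a rule chosen after its values were seen, 1 liver of a group lay at least 2-fold from the other two, which were themselves within 1.2-fold, in 24 of the 1854 genes in WT and in 30 in β-cateninΔ(ex3)/+. Together these were 46 genes, or 2.48%. In 8 genes it held in both groups, and these were *Igfbp4*, *Coq8a*, *Apoa5*, *Reep6*, *AI182371*, *Nrn1*, *Mettl7a1* and *Gm10263*. The cause of these splits was not tested.

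**Figure D3:**
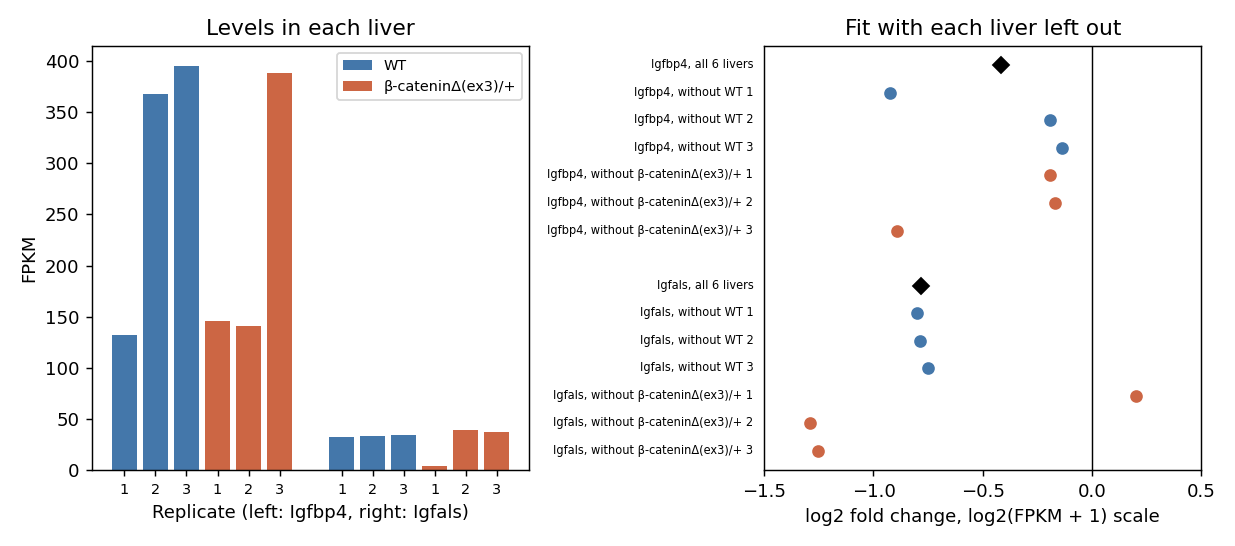
Left, FPKM of *Igfbp4* and *Igfals* (y axis) in each replicate of both groups (x axis); right, the log2 fold change of each gene with each liver left out in turn. *Igfbp4* has livers at 132 to 146 and at 367 to 395 FPKM in both genotypes, and the *Igfals* estimate moves from -0.78 to 0.20 when β-cateninΔ(ex3)/+ replicate 1 is left out.

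*Igfbp7*, which binds IGFs only weakly and is known from vessel walls and stroma, was lower in all 3 β-cateninΔ(ex3)/+ livers. It measured 121, 106 and 116 FPKM in WT and 62.9, 58.8 and 60.1 FPKM in β-cateninΔ(ex3)/+, a 1.89-fold higher mean in WT (114 ± 7.63 against 60.6 ± 2.10 FPKM, SD, n = 3 each). The log2 fold change of -0.90 (SE 0.058, adjusted p = 4.86e-05) passed the adjusted p and stayed under the 2-fold threshold, which it passed at -1.08 after median-ratio scaling and at -1.13 after quantile normalization. *Igfbp7* (ENSMUSG00000036256, chr5:77349240-77408041, minus strand) shares 85 bases with the oppositely oriented *Polr2b*, which lay between 4.98 and 6.3 FPKM in all livers.

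*Igfbp5* and *Igfbp6*, binding proteins with known roles in muscle, bone and stromal cells and the latter with a preference for IGF2, were the lowest members in WT. *Igfbp5* measured 4.77, 5.15 and 4.76 FPKM in WT and 4.52, 4.55 and 4.32 FPKM in β-cateninΔ(ex3)/+ livers. The groups did not overlap, but the log2 fold change of -0.11 (SE 0.053, 95% interval -0.24 to 0.020, adjusted p = 0.124) did not pass the test, although it passed the adjusted p at -0.25 (0.00979) after median-ratio scaling and at -0.30 (0.00486) after quantile normalization. *Igfbp6* measured 7.11, 5.80 and 7.19 FPKM in WT and 8.67, 6.26 and 7.04 FPKM in β-cateninΔ(ex3)/+ livers, with overlapping groups. Its log2 fold change of 0.11 (SE 0.13, 95% interval -0.21 to 0.42, adjusted p = 0.512) changed sign to -0.046 and -0.13 under the same scalings. The first of these genes (ENSMUSG00000026185) lies at chr1:72857932-72874884 on the minus strand and the second (ENSMUSG00000023046) at chr15:102144362-102149511 on the plus strand.

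Several members are neighbours in the genome. *Igfbp1* and *Igfbp3* point towards each other on chromosome 11, with 3539 bases between their 3′ ends and no gene of the table in between, and both fell. *Igfbp2* and *Igfbp5* have the same arrangement on chromosome 1, 5457 bases apart. There *Igfbp2* fell 24.6-fold, whereas *Igfbp5* lay at 4.76 to 5.15 FPKM in WT and 4.32 to 4.55 FPKM in β-cateninΔ(ex3)/+ livers.

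The order of the members within a liver differed between the groups. In each WT liver *Igfbp2* was first, followed by *Igfbp1*, *Igfbp4*, *Igfbp7*, *Igf1*, *Igfals*, *Igfbp3*, *Igfbp6* and *Igfbp5*, and no pair of neighbours in this order overlapped across the 3 livers. In each β-cateninΔ(ex3)/+ liver *Igfbp4* was first, followed by *Igfbp2*, *Igfbp7* and *Igf1*. There *Igfbp2* (61.6 to 64.0 FPKM) and *Igfbp7* (58.8 to 62.9 FPKM) overlapped, as did *Igfbp3* (4.26 to 5.25 FPKM) and *Igfbp5* (4.32 to 4.55 FPKM). *Igf1* thus stayed at nearly the same FPKM while it passed from below *Igfbp1* to above it. The ratio of *Igfbp1* to *Igf1* was 22.6 to 23.7 in WT and 0.368 to 0.402 in β-cateninΔ(ex3)/+ livers.

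Summed over the 7 binding protein genes, the WT livers held 2898 to 3166 FPKM and the β-cateninΔ(ex3)/+ livers 296 to 546 FPKM. *Igfbp1* and *Igfbp2* supplied 82.5 to 89.8% of the sum in WT and 15.0 to 27.2% in β-cateninΔ(ex3)/+, where *Igfbp4* was the main component at 47.4 to 71.1% (4.55 to 12.5% in WT). *Igfbp7* went from 3.40 to 4.18% of the sum in WT to 11 to 20.4% in β-cateninΔ(ex3)/+, although its own level was lower. Without *Igfbp1* and *Igfbp2* the sums were 297 to 554 FPKM in WT and 215 to 464 FPKM in β-cateninΔ(ex3)/+ livers, and the groups overlapped.

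The binding protein sum stood at 64.7 to 70.4 times the *Igf1* level in WT and 6.29 to 11.4 times in β-cateninΔ(ex3)/+ livers. Much of the range inside each group came with the split of *Igfbp4*, and without that gene the ratio was 59.4 to 61.8 in WT and 3.29 to 3.41 in β-cateninΔ(ex3)/+. For the large complex, *Igf1* was 1.40 to 1.53 times *Igfbp3* in WT and 9.06 to 11.2 times in β-cateninΔ(ex3)/+ livers. The ratio of *Igfals* to *Igfbp3* was 1.02 to 1.12 in WT and ranged from 0.783 to 8.81 in β-cateninΔ(ex3)/+, the low end being replicate 1. These are ratios of transcript levels per length, and no protein was measured.

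**Figure D4:**
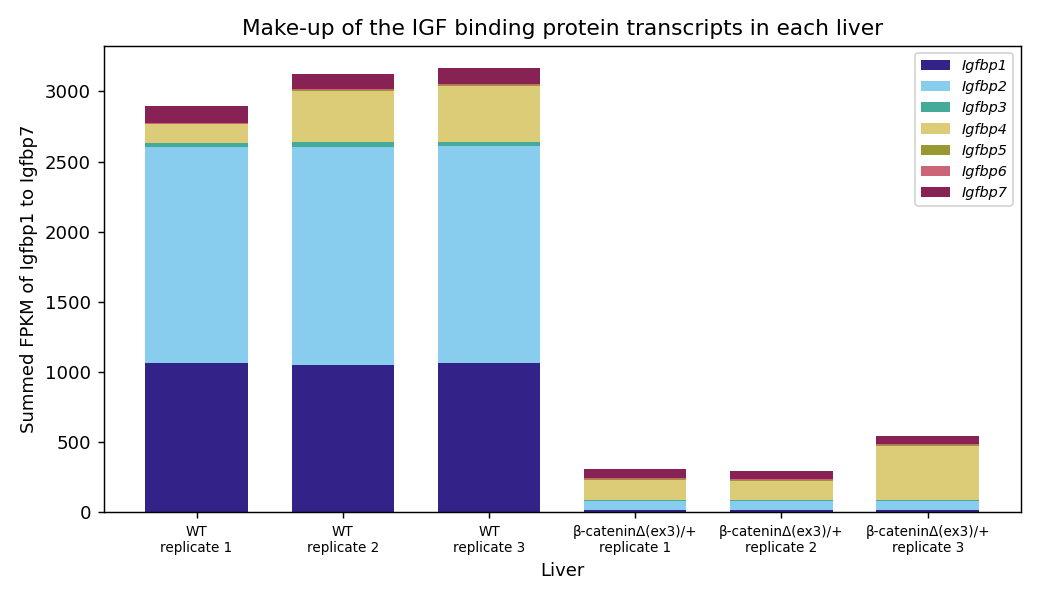
Summed FPKM of *Igfbp1* to *Igfbp7* (y axis) in each liver (x axis), with bars starting at 0 and stacked by gene. The WT bars reach 2898 to 3166 FPKM and are mostly *Igfbp1* and *Igfbp2*, and the β-cateninΔ(ex3)/+ bars reach 296 to 546 FPKM and have *Igfbp4* as their largest part, at 47.4 to 71.1%.

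Around the 9 members, 38 further genes of the IGF and growth hormone pathways were followed in 5 lists, of which 4 genes rose and 5 fell past both thresholds. Not all of the 38 passed the filter on low values, and a gene under it could not be called, so these counts are not shares of 38. The number tested is given with each list. Among all genes tested, 8.17% were called higher and 4.52% lower. Of the 6 ligand and receptor genes, 4 were tested, 2 fell and none rose. *Igf2*, the fetal growth factor, was at 836, 803 and 847 FPKM in the WT livers and was listed at 0 in each β-cateninΔ(ex3)/+ liver (adjusted p = 1.19e-09), so no fold is given. *Irs2*, an adaptor of the insulin and IGF1 receptors, was at 4.75, 4.95 and 5.06 FPKM in WT and 1.69, 1.56 and 1.35 FPKM in β-cateninΔ(ex3)/+ (log2 fold change -1.23, SE 0.069, adjusted p = 2.80e-05). *Irs1* (log2 fold change 0.18, adjusted p = 0.0790) and *Igf2r*, the clearance receptor for IGF2 (-0.07, adjusted p = 0.394), did not pass. The receptor genes *Igf1r* and *Insr* lay under the filter at means of 0.318 and 0.407 FPKM in WT and 0.0981 and 0.482 FPKM in β-cateninΔ(ex3)/+, and were not tested.

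Of the 6 genes for proteases that cut binding proteins and their modulators, only the serine protease gene *Htra1* reached the filter, and none was called. It was at 1.48 FPKM in WT and 1.89 FPKM in β-cateninΔ(ex3)/+ (log2 fold change 0.21, adjusted p = 0.0363). Of 9 genes whose proteins carry an IGFBP-like domain, 6 were tested, 2 rose and none fell. The first was *Ccn1*, a matricellular protein gene (3.12 ± 0.353 to 8.76 ± 0.422 FPKM, SD, n = 3 each, log2 fold change 1.25, adjusted p = 4.54e-05). The second was *Ccn5*, also known as a Wnt-induced gene, which was listed at 0 in 2 of the WT livers and at 0.0484 FPKM in the other and lay at 13.1, 12.6 and 12 FPKM in the β-cateninΔ(ex3)/+ livers (adjusted p = 1.33e-07). With WT livers at or near 0 its fitted log2 fold change is set by the pseudocount, at 3.74 with 1 FPKM and 6.80 with 0.1 FPKM.

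All 9 genes of the growth hormone axis were tested, of which 1 rose and 1 fell. *Socs3*, an inhibitor of cytokine signalling, rose from 1.88 ± 0.130 to 7.05 ± 0.709 FPKM (SD, n = 3 each, log2 fold change 1.48, adjusted p = 2.53e-05). *Socs2*, a STAT5 target that restrains growth hormone signalling, fell from 5.61 ± 0.147 to 0.888 ± 0.124 FPKM (log2 fold change -1.81, adjusted p = 4.79e-06). Others passed the adjusted p, as did 7551 of the 13243 genes tested, and not the fold on the log2(FPKM + 1) scale. The growth hormone receptor gene *Ghr* was at 23.7 and 40.9 FPKM in the WT and β-cateninΔ(ex3)/+ means (log2 fold change 0.76, adjusted p = 1.08e-05). *Stat5a* differed by 0.98, *Prlr* by 0.97, *Socs1* by 0.39, *Stat5b* by 0.27 and *Cish*, another STAT5 target, by -0.90. As ratios of mean FPKM, *Stat5a* was 2.27-fold and *Prlr* 2.08-fold higher in β-cateninΔ(ex3)/+, and *Cish* 2.50-fold higher in WT. The genes that the liver expresses at different levels in males and females shifted as well. In the β-cateninΔ(ex3)/+ livers 7 of 8 male-biased genes were higher (72.4 to 79.5 against 465 to 507 FPKM summed). Of 8 female-biased genes, 7 of which were tested, 5 were lower and 1 higher (229 to 242 against 115 to 124 FPKM). The part of these sex-biased genes in the growth hormone values was not tested.

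The 9 FoxO factors and targets were read because *Igfbp1* is a classical target of these factors. All 9 were tested, and 3 of them fell and 1 rose. The gluconeogenic genes *Pck1* and *G6pc* fell from 560 ± 6.61 to 205 ± 5.21 FPKM (log2 fold change -1.45, adjusted p = 3.67e-07) and from 164 ± 5.05 to 38.9 ± 0.759 FPKM (-2.05, adjusted p = 2.31e-07), and *Irs2*, already given, was the third. *Foxo3* rose from 1.34 ± 0.235 to 3.99 ± 0.0378 FPKM (SD, n = 3 each, log2 fold change 1.09, adjusted p = 0.000109), though at 0.97 and 0.95 it missed the fold threshold after median-ratio scaling and quantile normalization. The fall of *Igfbp1*, at -5.79, was larger on this scale than that of any of these targets. *Foxo4* (0.67, adjusted p = 0.000884), *Foxo1* (0.34, adjusted p = 0.00173), *Pdk4* (-0.98, adjusted p = 5.63e-05) and *Sesn3* (-0.24, adjusted p = 0.0144) passed the adjusted p and not the fold. Among all genes tested, 4952 passed the adjusted p alone as higher and 2599 as lower. As a ratio of mean FPKM, *Pdk4* was 2.21-fold higher in WT. All 3 FoxO factor genes had higher means in the β-cateninΔ(ex3)/+ livers. *Ppargc1a* did not pass (-0.10, adjusted p = 0.246).

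**Figure D5:**
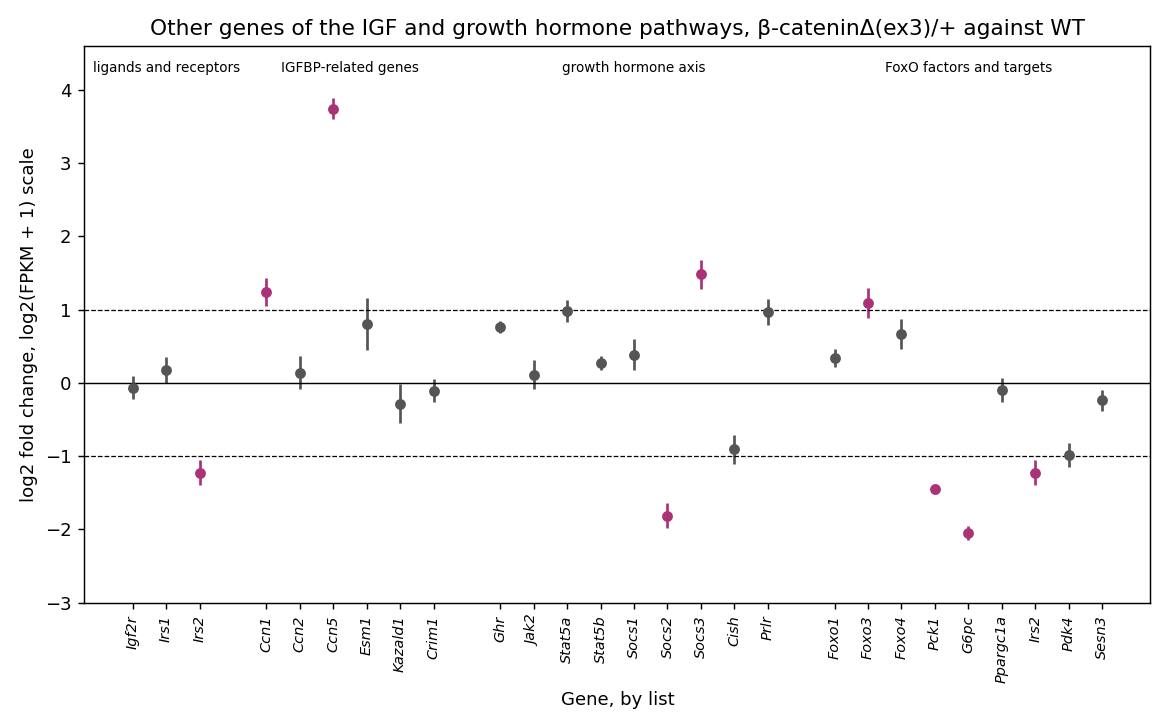
Log2 fold change of β-cateninΔ(ex3)/+ against WT on the log2(FPKM + 1) scale (y axis) for the tested genes of 4 pathway lists (x axis, grouped by list), with bars for the 95% interval, dashed lines at 2-fold and called genes in colour. *Ccn5* stands highest at 3.74, a value set by the pseudocount of 1 FPKM, *G6pc* and *Socs2* are low at -2.05 and -1.81, and *Igf2*, listed at 0 in the β-cateninΔ(ex3)/+ livers, is not drawn.

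Across the 6 livers, the profiles most like those of 3 members were sought among the 1853 other genes with a mean of at least 20 FPKM, by Pearson correlation of log2(FPKM + 1). For *Igf1* these were *Cluh* (r = 0.995), *Entpd8* (0.990) and *Ywhab* (0.988). For *Igfbp1* they were *H19* (r = 0.99996), *Igf2* (0.99994) and *Itih3* (0.99993). The r follows the small spread inside each group and not the size of the change, since *Itih3* lay at 348 to 350 FPKM in WT and at 237 to 239 FPKM in β-cateninΔ(ex3)/+ livers. For *Igfbp4*, whose pattern crosses the groups, the closest were *Cct5* (r = 0.877), *Akr1c13* (0.861) and *Rpsa-ps10* (0.853). None of them had its wide split: over the livers they lay at 34.3 to 38.6, 39.7 to 42.5 and 29.3 to 40.8 FPKM. These r are the highest of many genes compared over few livers. All 6 points of each correlation come from the same 2 groups of libraries, and the values describe these livers only.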

How the data were processed

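RNA was measured in 3 WT and 3 β-cateninΔ(ex3)/+ livers, from poly(A)-selected, strand-marking libraries read as paired ends. The authors deposited 1 table of FPKM per gene and liver. The submitters' processing notes name cutadapt 1.9, HISAT2 2.0.4, StringTie 1.3.4d, DESeq2 and edgeR without their roles, and the genome build is not given in the sources used here. Of the table's gene identifiers 31856 are in GENCODE M21 (GRCm38), 28911 with the same start and end, as are all 9 members, whose coordinates are from the table. Depth is unknown, since FPKM without counts gives no counting interval. Summed FPKM per liver was 445026 to 472042, and 0 columns of livers were left unused.

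From these values, log2(FPKM + 1) of the 13243 genes with a mean of at least 0.5 FPKM was fitted with limma 3.58.1 (R 4.3.3, moderated with a mean-dependent trend), and p-values were adjusted by Benjamini-Hochberg over all of them. Calls needed an adjusted p under 0.05 and 2-fold, the study's thresholds. The study's DESeq2 test needs counts and was not run. Standard errors and 95% intervals are on the log2(FPKM + 1) scale, which understates changes of low genes. For the members, the difference of means was also given an exact permutation p (two-sided) in Python 3.11.15 (SciPy 1.17.1). The fitting code was tested on simulated data. The p-values set the difference between the groups against the spread between livers of a group. They do not separate genotype from sex or from what the young-liver markers follow.

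The text names the 9 members, every gene of the pathway lists past both thresholds, genes that check genotype, tissue and group, and, for *Igf1*, *Igfbp1* and *Igfbp4*, the 3 genes of most similar profile. Other genes were named after their values were seen. The members and lists were chosen with earlier results of these data known. *Tf* and *Ahsp* of the marker lists did not match the table. Remaining marker lists gave, as higher and lower calls, 0 and 1 of 5 cholangiocyte, 0 and 4 of 7 erythroid, 0 and 2 of 4 lymphocyte and 2 and 0 of 8 cell division genes. Only 4 of the cholangiocyte and 3 of the lymphocyte genes passed the filter on low values and were tested. Alternatives were a pseudocount of 0.1, no filter, a mean of at least 1 FPKM, median-ratio scaling, quantile normalization, limma without the trend, a replicate block, the adjusted p alone and leaving out each liver. Promoters are RefSeq sequences.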

Additional observations from a re-analysis of the deposited data

How the results depend on the processing

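Of 302 values recomputed under the alternatives, 289 kept their direction and their call, which needs the adjusted p and the fold together, or stayed within 1.5 times for a count. *Igfbp5*, uncalled throughout, passed the adjusted p alone at -0.25 (0.00979) and -0.30 (0.00486) under median-ratio scaling and quantile normalization. *Igfbp1*, *Igfbp2* and *Igfbp3* were called lower in every alternative run, at -6.00 to -5.77, -4.85 to -4.58 and -2.72 to -2.43. A pseudocount of 0.1 gave 2705 differentially expressed genes in place of 1680. It also gave 7 pathway genes higher in place of 4 and 7 lower in place of 5. The adjusted p alone gave 7551 genes. Median-ratio scaling and quantile normalization reversed *Igf1* to -0.11 and -0.20 and *Igfbp6* to -0.046 and -0.13, and brought *Igfbp7* past 2-fold at -1.08 and -1.13. Under these scalings the share of calls that were higher went from 64.4% to 54.2% and 50.0%, and the median of all genes from 0.14 to 0.02 and -0.02. With each liver left out, *Igfals* ranged from -1.29 to 0.20, the reversal coming without β-cateninΔ(ex3)/+ replicate 1, and *Igfbp6* from -0.0064 to 0.20. The cause was not tested. Deviations of livers with the same replicate number were only weakly correlated (0.0268, 0.0213 and -0.0054), although 4 of 6 livers correlated best with their own number. Whether the numbers pair the livers is thus not settled. A replicate block gave 1673 called genes and changed no member's call. With 3 livers a group and no counts, small differences such as that of *Igf1* are limited by scaling, and the unknown depth limits what can be said of low genes.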
